A study of Bos taurus with 8 samples.

Results

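Genes that endothelial cells use to hold on to each other and to catch leukocytes, 10 in all, were followed from bovine muscle into culture. They were chosen by name as a functional group, with earlier results of these data known, and each was found by its exact symbol among the 21880 genes of the count matrices. They are the adherens junction cadherin CDH5 (ENSBTAG00000007421), the contact adhesion receptor PECAM1 (ENSBTAG00000012066), the tight junction genes CLDN5 (ENSBTAG00000022020), F11R (ENSBTAG00000017846) and ESAM (ENSBTAG00000001004), the surface sialomucins CD34 (ENSBTAG00000010562) and EMCN (ENSBTAG00000034206), the granule protein VWF (ENSBTAG00000012265), and the leukocyte receptors ICAM1 (ENSBTAG00000010303) and VCAM1 (ENSBTAG00000007773). All 10 were read at every timepoint.

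The study followed semitendinosus muscle cells of 10 Belgian Blue cattle, calves and adults of both sexes, through a process for cultured meat. Timepoint 1 was muscle digested with collagenase (10 donors), and Timepoint 2 was the unsorted culture after 72 h on fibronectin in serum-free growth medium (passage 0, 9 of those donors). Timepoints 3, 4 and 5 were passages 2, 5 and 8, of satellite cells (SCs) sorted from donors 5, 6 and 10 and grown on laminin-521, of fibro-adipogenic progenitors (FAPs) sorted from donors 4, 7 and 8 and grown on collagen I, and of unsorted cells of donors 1, 2 and 9 on fibronectin. Each timepoint was a single droplet library of pooled donors, so that timepoint and library cannot be told apart, and donors were separated afterwards from their genotypes. The sort used antibodies to JAM-1, the protein of F11R, and to CD45, ITGA7 and ITGA5, so that cells carrying JAM-1 or CD45 on their surface were kept out of the sorted cultures.

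Vascular endothelial cells are joined side by side. Homophilic binding of VE-cadherin (CDH5) makes the adherens junction, claudin-5 seals the tight junction above it, and the immunoglobulin-like proteins JAM-A (F11R), ESAM and PECAM-1 line the same border and are passed by migrating leukocytes. The luminal side carries a coat of sialomucins and stores von Willebrand factor in secretory granules, whereas ICAM-1 and VCAM-1, which bind leukocyte integrins, are known for rising when endothelium or stroma is exposed to inflammatory cytokines. Lymphatic endothelium shares CDH5, PECAM1 and CLDN5 with blood vessels but makes little VWF.

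Cells were taken with the type given by the authors, and values are counts of unique molecular identifiers (UMIs) summed per donor and type, given as CPM (counts of a gene per 1000000 counts of that sum). A UMI counts a molecule whatever its length, so levels of different genes were compared without a length correction. The vascular endothelial cells (VECs) numbered 1166 at Timepoint 1 and 831 at Timepoint 2, and the lymphatic endothelial cells (LECs) 81 and 168, out of 4395 and 9591 cells that passed quality control. Median depth rose from 2778.5 to 12856 UMIs per cell in VECs and from 4866 to 9436 in LECs, and over the 5 libraries it ran from 4184 to 27239.5 UMIs per cell. In total 129 barcodes occurred in more than 1 library (258 cells), and these were left in. A list of 6 VEC markers, among them CDH5, PECAM1 and VWF themselves, summed to between 2924 and 3862 CPM in the VECs of each donor at Timepoint 1 and between 1723 and 2742 at Timepoint 2, with none of the 6 at 0. A list of 7 lymphatic markers stayed at or below 59.3 CPM in VECs and reached 7466 to 18098 CPM in LECs at Timepoint 1 and 1765 to 3718 at Timepoint 2. Of the 6 VEC markers, FLT1 was at 0 in LECs of Timepoint 2. Lists of other cell types moved with the timepoint within VECs: muscle fibre genes summed to 173 to 593 CPM at Timepoint 1 and 0 to 1.08 at Timepoint 2, FAP markers to 39.6 to 881 and then 278 to 594, and smooth muscle and mesenchymal cell (SMMC) markers to 50.1 to 168 and then 25.1 to 81.8. Their part in the results below was not tested.

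After 72 h in culture the junction genes of VECs split into those that were kept and those that were not. CDH5, PECAM1 and CLDN5, the 3 most abundant members in culture, did not fall, and EMCN was lower by less than 2-fold. ESAM, F11R, CD34 and VWF fell by 2.48-fold to 6.94-fold. ICAM1 was lower too, but with 119 UMIs in culture it entered the fit mainly through muscle. Counts per donor were compared with edgeR's quasi-likelihood test (10 donors at Timepoint 1, 9 at Timepoint 2), and a gene was called when its Benjamini-Hochberg adjusted p over all tested genes was below 0.05 and its fold change above 2. Of the 9 members tested in VECs 5 were called lower, ICAM1 with the limit above among them, and 0 higher. Of all tested genes 19.6% were called lower and 15.6% higher. VCAM1 had too few UMIs for the filter on low counts and is given by its counts.

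**Figure D1:**
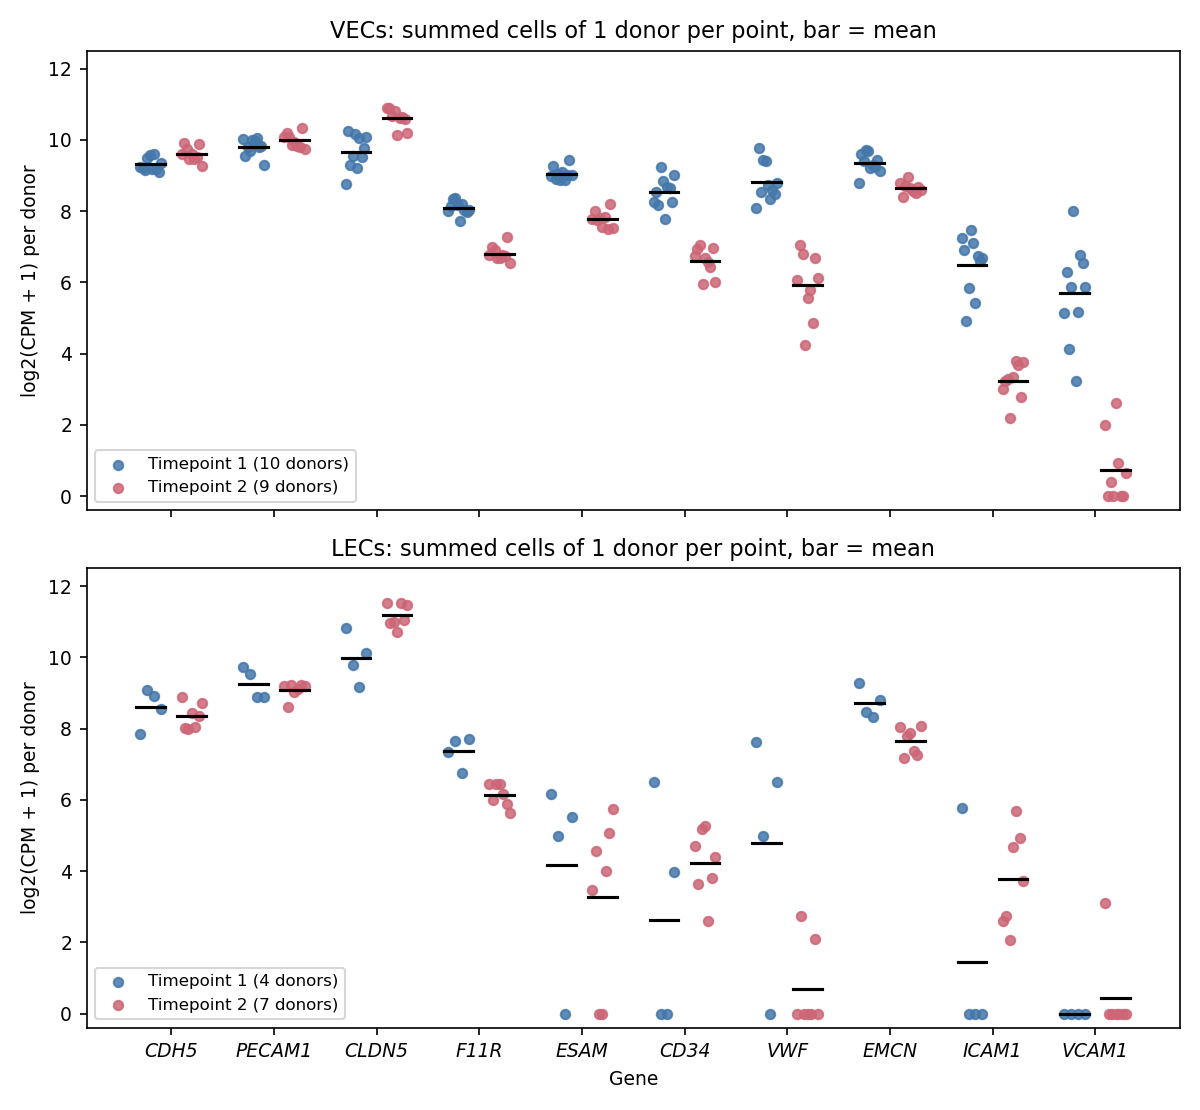
Level of each of the 10 genes, as log2(CPM + 1), in VECs (top) and LECs (bottom) at Timepoint 1 (muscle) and Timepoint 2 (passage 0); each point is the summed cells of 1 donor and the bar is the mean of the points. VEC points of F11R, ESAM, CD34, VWF, ICAM1 and VCAM1 do not overlap between the timepoints, whereas those of CDH5, PECAM1, CLDN5 and EMCN do.

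CDH5, the gene of VE-cadherin, ranged from 542 to 776 CPM (median 598) in the VECs of the 10 donors in muscle and from 617 to 956 CPM (median 780) in the 9 donors after 72 h. The donor values overlapped, and CDH5 was higher in culture in 6 of the 9 donors seen at both times. The means were 638 ± 83.9 CPM (SD, n = 10) and 786 ± 116 CPM (SD, n = 9), a difference of 0.26 ± 0.09 (SE) on the log2 scale (edgeR adjusted p = 0.0095), below the fold limit. PECAM1, which links neighbouring endothelial cells and had the highest donor mean in muscle VECs with CLDN5 within its spread, ranged from 632 to 1064 CPM (median 900) and then from 862 to 1283 CPM (median 983). It too overlapped, with a difference of 0.14 ± 0.10 on the log2 scale (edgeR adjusted p = 0.18) whose 95% interval ran from -0.05 to 0.33.

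In LECs the pair had lower means than in VECs and did not move beyond the donor spread. LECs of donors 4, 7, 8 and 10 held 232, 537, 486 and 371 CPM of CDH5 in muscle, and those of 7 donors held 254 to 469 CPM in culture. The log2 difference was -0.39 ± 0.22 (edgeR adjusted p = 0.16). PECAM1 stood at 855, 737, 471 and 475 CPM in the same 4 donors and between 388 and 601 CPM in culture, a log2 difference of -0.30 ± 0.17 (edgeR adjusted p = 0.16). Both signs depended on scaling: without the filter on low counts, which moved the median of all genes in LECs by 0.41, the differences were 0.01 and 0.11. CDH5 was higher in VECs than in LECs in each of the 4 donors with both types in muscle and each of the 7 in culture, and PECAM1 in 3 of 4 and 7 of 7.

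Outside the endothelium the donor means of CDH5 and PECAM1 were at or under 36.1 CPM. Levels between types are a description, since the authors had named the types from the same expression values. CDH5 was next highest in SMMCs, at 23.2 ± 18.5 CPM (SD, n = 10) in muscle and 17.8 ± 33.7 CPM (SD, n = 7) in culture, where donor 9 alone had 93.4 CPM. SCs, FAPs and monocytes/macrophages lay between 2.71 and 10.6 CPM at both times and overlapped each other. PECAM1, which platelets and some leukocytes also carry, was 36.1 ± 31.8 CPM (SD, n = 10) in monocytes/macrophages of muscle, where donor 8 alone had 116 CPM and the next donor 55.0 CPM. This was above the other non-endothelial types in the mean but not in its donor range. Monocytes/macrophages of muscle had 10.6 PECAM1 UMIs for each CDH5 UMI (74 against 7), beside 1.31 in VECs and 1.19 in LECs of that library. In FAPs neither was called, with log2 differences of -0.26 ± 0.29 for CDH5 and 0.18 ± 0.37 for PECAM1 (edgeR adjusted p = 0.42 and 0.67).

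**Figure D2:**
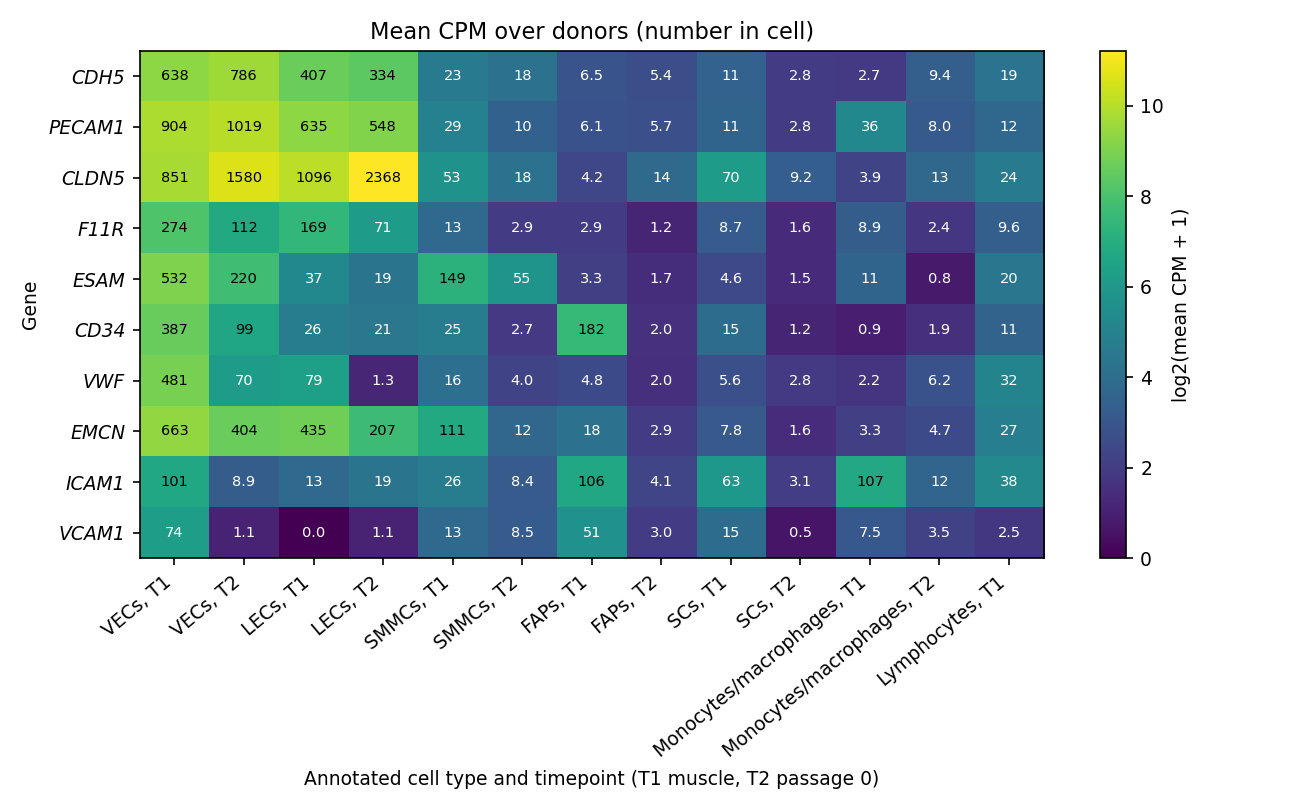
Mean level of the 10 genes over donors, with CPM printed in each cell and log2(mean CPM + 1) as colour, in each annotated cell type with donor sums of at least 10 cells (T1 muscle, T2 passage 0). CDH5, PECAM1, CLDN5, F11R and EMCN have their highest means in VECs and LECs and ESAM in VECs and SMMCs, while ICAM1 in muscle is at a like level in VECs, FAPs and monocytes/macrophages.

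CLDN5, the sealing claudin of endothelial tight junctions, was the member with the highest level in culture. In VECs its donors ranged from 436 to 1223 CPM (median 809) in muscle and from 1126 to 1910 CPM (median 1593) after 72 h. The ranges met at their edges, and CLDN5 was higher in culture in 9 of 9 donors. The log2 difference was 0.86 ± 0.15 (1.82-fold, edgeR adjusted p = 2.7e-05), under the limit of 2-fold. Without the filter on low counts the median of all genes moved by 0.22, and CLDN5 was called there at 1.07. In LECs it stood at 1818, 875, 577 and 1114 CPM in donors 4, 7, 8 and 10 in muscle and between 1661 and 2955 CPM (median 2130) in culture. This was the only member called higher in LECs, where 14.8% of all tested genes were called higher, with a log2 difference of 1.02 ± 0.30 (edgeR adjusted p = 0.019). The call sat at the threshold: the difference was 0.93 with pseudobulks thinned to equal depth and 0.87 without donor 7 or without donor 8. LECs had more CLDN5 than VECs of the same donor in 2 of 4 donors in muscle and in 7 of 7 in culture, with ratios of the means over those donors of 1.21 and 1.47.

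CLDN5 was also the member with a level in SCs above that of the other endothelial genes. SCs of muscle held 20.5 to 142 CPM (median 61.1), and those of passage 0 held 4.35 to 14.9 CPM (median 8.61), without overlap. The log2 difference was -2.97 ± 0.31 (edgeR adjusted p = 1.7e-08). In SCs of muscle there were 7.63 CLDN5 UMIs for each UMI of CDH5, against 1.34 in VECs and 2.20 in LECs of the same library. With every cell thinned to 2000 UMIs, 11.3% of SCs in muscle had a CLDN5 UMI, while the other endothelial members were found in 0.67% to 2.16% of them; at Timepoint 2 the CLDN5 share was 1.80%. FAPs went the other way, from 4.16 ± 3.12 CPM (SD, n = 10) to 13.6 ± 3.37 CPM (SD, n = 9), higher in 9 of 9 donors at overlapping ranges, with a log2 difference of 1.56 ± 0.28 (edgeR adjusted p = 1.5e-05). The FAPs of passage 0 had 2.54 CLDN5 UMIs for each CDH5 UMI, between the 1.97 of VECs and the 7.04 of LECs in that library, and the 1.06 PECAM1 UMIs for each CDH5 UMI in FAPs stood beside 1.28 in VECs. The part of free RNA in this FAP signal was not tested.

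F11R encodes JAM-A, the junctional adhesion molecule used in the sort. In VECs it ranged from 209 to 327 CPM (median 271) in muscle and from 92.3 to 152 CPM (median 107) in culture. No donor of one time reached the other, and all 9 shared donors fell. The log2 difference was -1.33 ± 0.10 (2.52-fold lower, edgeR adjusted p = 1.8e-12). LECs followed, from 160, 200, 106 and 208 CPM in donors 4, 7, 8 and 10 to between 48.5 and 86.7 CPM, again without overlap, at -1.35 ± 0.29 (edgeR adjusted p = 0.00039). Without the filter on low counts the LEC difference was -0.93, inside the fold limit. F11R and EMCN were the 2 members called lower in LECs, of 5 tested, beside 14.8% of all tested genes called lower. The transcript was still above all non-endothelial types at 72 h, when the sort was done: 112 ± 17.9 CPM (SD, n = 9) in VECs and 71.2 ± 15.4 CPM (SD, n = 7) in LECs, against means of 1.22 to 2.90 CPM in FAPs, SCs, monocytes/macrophages and SMMCs. After thinning to 2000 UMIs, however, 20.9% of VECs had an F11R UMI at that time, down from 43.0% in muscle.

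ESAM, a further immunoglobulin-like protein of the tight junction, was 464 to 695 CPM (median 516) in VECs of muscle and 179 to 295 CPM (median 218) in culture. These ranges did not overlap, and the log2 difference was -1.31 ± 0.10 (2.48-fold lower, edgeR adjusted p = 3.7e-12), close to that of F11R. VECs had more ESAM than LECs in 4 of 4 donors in muscle and 7 of 7 in culture, at 13.8 and 11.8 times the LEC mean over those donors, where the pooled LECs of all donors held 16 and 36 ESAM UMIs. Its next highest type was SMMCs, at 149 ± 49.7 CPM (SD, n = 10) in muscle and 54.6 ± 23.5 CPM (SD, n = 7) at passage 0, ranges of 91.6 to 240 and 29.6 to 90.8 CPM that did not overlap. The SMMC difference of -1.55 ± 0.21 on the log2 scale (edgeR adjusted p = 5.4e-07) was near that of VECs. In FAPs, SCs and monocytes/macrophages ESAM stayed at or under a mean of 11.4 CPM.

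Among the luminal genes of VECs, CD34 and VWF were called lower and EMCN was not. CD34, a sialomucin shared by vessels and stromal progenitors, ranged from 217 to 604 CPM (median 384) in VECs of muscle and from 61.2 to 132 CPM (median 102) in culture. All 9 shared donors fell without overlap, at -2.01 ± 0.17 (4.04-fold lower, edgeR adjusted p = 2.4e-10). FAPs lost far more of it: 121 to 257 CPM (median 168) in muscle became 1.52 to 2.70 CPM (median 1.86), at -6.41 ± 0.16 (85.1-fold lower, edgeR adjusted p = 1.1e-20). The difference between the 2 changes was itself 4.45 ± 0.24 on the log2 scale (edgeR adjusted p = 1.6e-18). CD34 entered the FAP fit mainly through muscle, so the sizes of the FAP change and of this difference are not read. In muscle the donor ranges of VECs and FAPs overlapped, and the 23 tenocytes, too few per donor for a donor sum, held 134 CPM when pooled (19 UMIs). In passage 0 the highest level was that of VECs at 98.6 ± 25.4 CPM (SD, n = 9) with LECs next at 21.0 ± 12.2 CPM (SD, n = 7). LECs of muscle held 26.0 CPM on average, of which donor 4 alone had 89.1 CPM, and CD34 was not tested there.

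EMCN, endomucin, an anti-adhesive mucin of veins and capillaries, was 441 to 834 CPM (median 652) in VECs of muscle and 332 to 500 CPM (median 402) in culture. The ranges overlapped, 8 of 9 donors were lower, and the log2 difference of -0.76 ± 0.11 (edgeR adjusted p = 8.4e-07) stayed within 2-fold. LECs of donors 4, 7, 8 and 10 had 624, 353, 319 and 446 CPM, and those in culture 143 to 267 CPM. Here the groups did not overlap, and EMCN was called lower at -1.16 ± 0.22 (edgeR adjusted p = 8.3e-05), a call lost without donor 4 (-0.96) and without the filter on low counts (-0.75). In SMMCs EMCN was 71.2 to 166 CPM (median 106) in muscle and 4.96 to 20.8 CPM (median 11.1) at passage 0, at -3.53 ± 0.23 (11.5-fold lower, edgeR adjusted p = 1.3e-12). Both members tested in SMMCs, ESAM and EMCN, were thus called lower, beside 21.3% of all tested genes. EMCN, with 51 UMIs in SMMCs of culture, entered that fit mainly through muscle. FAPs fell from 17.8 ± 6.61 CPM (SD, n = 10) to 2.92 ± 0.58 CPM (SD, n = 9), at -2.39 ± 0.21.

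VWF, the granule protein that tethers platelets, varied most between donors among the abundant members. In VECs of muscle it ranged from 271 to 868 CPM (median 404), and in culture from 18.0 to 131 CPM (median 66.4), without overlap. The log2 difference was -2.80 ± 0.31 (6.94-fold lower, edgeR adjusted p = 1.9e-07). VECs had more VWF than LECs in each donor with both types, 4 in muscle and 7 in culture, with a ratio of means of 5.84 in muscle. The pooled LECs held 21 VWF UMIs in muscle and 2 in culture, so no ratio or fold is given for culture. Non-endothelial types had means of 1.96 to 32.3 CPM at the 2 times.

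**Figure D3:**
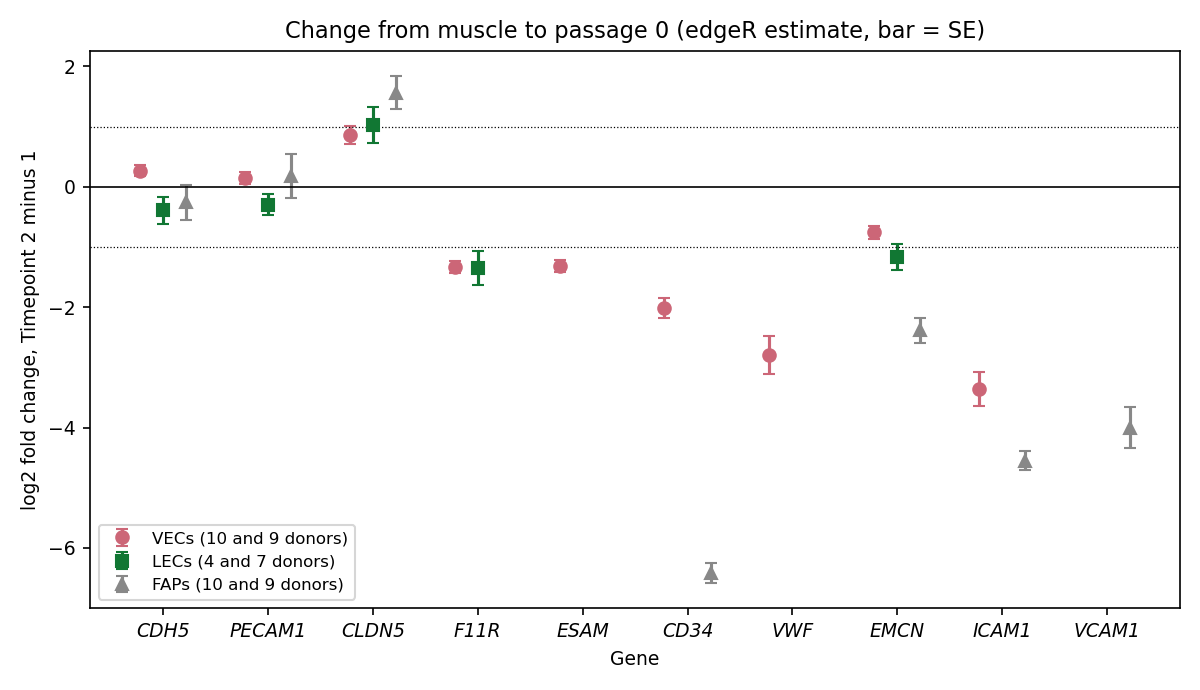
Log2 fold change (edgeR estimate, bar = SE) from Timepoint 1 to Timepoint 2 for each member tested in VECs, LECs and FAPs, with dotted lines at the limit of 2-fold. CLDN5 lies above 0 in all 3 types, F11R and EMCN below 0 where tested, and the lowest point is CD34 in FAPs at -6.41.

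The adhesion receptors fell in several cell types. ICAM1, the ligand of leukocyte beta-2 integrins, ranged from 29.1 to 175 CPM (median 103) in VECs of muscle and from 3.60 to 12.7 CPM (median 8.81) in culture. The ranges were apart, and the log2 difference was -3.36 ± 0.28 (10.3-fold lower, edgeR adjusted p = 2e-10). With 119 UMIs in VECs of culture ICAM1 entered that fit mainly through muscle, so the size of the fall is not read. VECs were not the highest type in muscle: monocytes/macrophages had 107 ± 33.6 CPM, FAPs 106 ± 33.6 CPM and VECs 101.2 ± 47.4 CPM (SD, n = 10 each), all overlapping, with SCs next at 62.8 ± 18.9 CPM. All of these fell without overlap. FAPs went to 4.11 ± 0.71 CPM (SD, n = 9) at -4.55 ± 0.16 (edgeR adjusted p = 6.5e-18), and SCs to 3.14 ± 1.67 CPM (SD, n = 9) at -4.51 ± 0.25 (edgeR adjusted p = 4.2e-14). Monocytes/macrophages went to 11.6 ± 9.24 CPM (SD, n = 7) at -3.02 ± 0.35 (edgeR adjusted p = 2e-08). ICAM1 was the only member tested in monocytes/macrophages, where 20.4% of all tested genes were called lower. With 15 UMIs in culture it entered that fit through muscle. In SMMCs, where ICAM1 failed the filter on low counts, it averaged 26.1 CPM in muscle and 8.42 CPM in culture. These ranges overlapped, and 6 of 7 donors were lower.

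In LECs ICAM1 was too low to test alone. Their 4 donors in muscle had 53.5 CPM in donor 4 and 0 in the other 3, from 3 UMIs, and the 7 donors in culture had 3.18 to 50.2 CPM (median 12.1), from 28 UMIs. The change in VECs minus the change in LECs was -3.91 ± 1.12 on the log2 scale (edgeR adjusted p = 0.023). No other member was called in that contrast, where 6.94% of all tested genes were called in either direction. In simulated data the contrast recovered 40.7% of changes of 1.5 and 67.1% of changes of 2 on the log2 scale, so members not called may still differ. The genes changed there lay above a floor of mean CPM and had equal starting levels in VECs and LECs. This recovery therefore does not cover members with few UMIs in LECs. ICAM1 entered the contrast through its level in VECs alone, since it failed the filter on low counts in LECs, and leaving out single LEC donors moved the value between -3.18 and -9.72. It was not called without the filter on low counts (adjusted p = 0.079), in the fit blocked by donor (adjusted p = 0.061), or without donor 7, 8 or 10, and is therefore given as a value and not read as a difference between the types.

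VCAM1, the ligand of integrin alpha-4 beta-1, had the lowest mean of the 10 members in VECs at both times and was uneven between donors. In VECs of muscle it ranged from 8.35 to 257 CPM (median 57.7), the highest value being donor 5, and in culture from 0 to 5.12 CPM (median 0.31), on 304 and 11 UMIs. No donor overlapped and 9 of 9 were lower. No fold is given, since VCAM1 failed the filter on low counts in VECs. FAPs ranged from 17.4 to 105 CPM (median 41.9) in muscle and from 0.58 to 5.53 CPM (median 2.85) in culture, at -4.00 ± 0.34 (16.0-fold lower, edgeR adjusted p = 1.1e-09). In SCs 2.22 to 31.0 CPM (median 14.3) became 0 to 2.02 CPM (median 0.27), again without overlap. With 37 and 17 UMIs VCAM1 failed the filter on low counts there too, and no fold is given. LECs of muscle had 0 UMIs of VCAM1, which allows up to 6.78 CPM (3 UMIs of the pooled total, counting error only). In FAPs 4 of the 7 tested members were called lower (CD34, EMCN, ICAM1, VCAM1) and 1 higher (CLDN5), beside 22.5% and 20.9% of all tested genes. In SCs the 2 tested members, CLDN5 and ICAM1, were both lower, beside 18.5% of all tested genes. The 4 lower members of FAPs had means of 1.99 to 4.11 CPM in culture, and ICAM1 in SCs 3.14 CPM. F11R, ESAM and VWF, at means of 1.22 to 4.78 CPM in FAPs, failed the filter on low counts. The lower members thus entered the fits mainly through muscle, and these counts are not read as a result.

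The change in VECs could be set against that in FAPs of the same libraries for all 10 members, and 25.6% of all tested genes were called in either direction. Of the members tested in both types, CD34, EMCN and ICAM1 were called, ICAM1 not after thinning. CD34 (given above) and EMCN fell less in VECs, EMCN by 1.68 ± 0.22 on the log2 scale (edgeR adjusted p = 1.6e-08). For ICAM1 the difference was 1.25 ± 0.33 (edgeR adjusted p = 0.0016), and 0.64 after thinning to equal depth, where it was not called (edgeR adjusted p = 0.59). CD34, EMCN and ICAM1 had entered the FAP fit mainly through muscle, so the sizes of these differences are not read. In FAPs of culture EMCN had 0.556 UMIs for each CDH5 UMI, beside 0.497 in VECs, and CD34 0.377 beside 0.131. The part of free RNA in these FAP levels was not tested. VWF (-1.98 ± 0.64, edgeR adjusted p = 0.010) and VCAM1 (-2.30 ± 0.97, edgeR adjusted p = 0.049) passed the threshold too, but VWF had failed the filter on low counts in FAPs (27 UMIs in muscle) and VCAM1 in VECs (11 UMIs in culture). Each entered through the type where it was high, and these values are not read as differences. VWF missed the threshold after thinning, and VCAM1 with no filter, with at least 30 cells per donor, in the blocked fit and after thinning.

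Shares of single VECs with a UMI were compared after all cells were thinned to 2000 UMIs, which kept 830 of 1166 VECs at Timepoint 1 and 828 of 831 at Timepoint 2. The share of VECs with a UMI went from 68.0% to 76.9% for CDH5, from 71.9% to 81.6% for PECAM1 and from 69.6% to 84.8% for CLDN5. It went from 63.7% to 32.7% for ESAM, from 54.7% to 16.9% for CD34, from 44.1% to 11.7% for VWF and from 72.7% to 48.3% for EMCN. ICAM1 went from 9.52% to 1.33%, whereas the unthinned shares were 13.7% and 11.4%, and VCAM1 went from 6.63% to 0.12%. In FAPs, which should lack VE-cadherin, 1.17% and 2.32% of thinned cells had a CDH5 UMI. The thinned ICAM1 share at Timepoint 2 was 0.743% in FAPs and 0.570% in SCs, and that of VCAM1 0.460% and 0.132%. Counted together, the 8 endothelial members other than ICAM1 and VCAM1 were found at a mean of 4.88 per thinned VEC in muscle and 3.74 in culture. At least 3 of the 8 were found in 92.8% and 81.2% of VECs, in 60.8% and 50.6% of LECs, and in 0.587% and 1.03% of FAPs.

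Within the VECs of muscle, cells with and without a VWF UMI were compared. The 366 thinned VECs with a VWF UMI held VCAM1 in 11.7% and ICAM1 in 13.9%, against 2.59% and 6.03% of the 464 without, in the same direction in 9 of 10 donors for each. EMCN (78.7% against 67.9%, 8 of 10 donors) and CD34 (60.4% against 50.2%, 7 of 10 donors) were also found more often in the cells with VWF, as was PECAM1 by less (74.3% against 70.0%, 7 of 10 donors). CDH5 (67.5% against 68.3%) and ESAM (62.3% against 64.9%) were higher among VWF cells in 4 of 10 donors each. CLDN5 and F11R ran the other way, in 65.6% against 72.8% and in 40.4% against 45.0%, being higher among VWF cells in 2 of 10 donors each. The 79 VECs with an ICAM1 UMI had VCAM1 in 21.5% against 5.06% of the other 751 (6 of 8 donors) and CLDN5 in 51.9% against 71.5% (higher in 1 of 8 donors). These are counts of cells within donors and were not tested. In culture, the 97 VECs that kept a VWF UMI held PECAM1 in 92.8% and CD34 in 25.8%, against 80.2% and 15.7% of the other 731 cells, higher in 6 of 6 and 5 of 6 donors. The junction genes were also found more often there in cells with VWF: CDH5 in 86.6% against 75.6%, ESAM in 43.3% against 31.3%, CLDN5 in 94.8% against 83.4% and F11R in 23.7% against 20.5%, higher in 5, 5, 4 and 4 of 6 donors. EMCN was found in 47.4% against 48.4% (higher in 2 of 6 donors), and ICAM1 and VCAM1 had too few cells with a UMI for this comparison.

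Lists of junction partners and endothelial regulators held lower calls and no higher ones in VECs, where 19.6% of all tested genes were called lower and 15.6% higher. Of 8 tested adherens junction partners 4 were called lower in VECs and 0 higher, with a median log2 difference of -0.98 beside -0.02 over all tested genes. The leading ones were PTPRB (-3.22), the phosphatase bound to VE-cadherin, and JUP (-1.51), plakoglobin. Of 6 tight junction genes 3 were lower and 0 higher (median -0.73), led by JAM2 (-3.30), a partner of the JAM family, and the scaffold TJP1 (-2.39). Calls in the adherens junction list were not limited to the endothelium. In FAPs 5 of 8 tested were lower and 1 higher (median -1.08), in SCs 3 of 6 lower (-1.25) and in SMMCs 2 of 5 lower (-0.81). Of all tested genes 22.5%, 18.5% and 21.3% were called lower there. JUP was at -2.84 in FAPs and -2.51 in SCs, and 0 of 3 were called in monocytes/macrophages. Of tight junction genes 3 of 8 were lower and 3 higher in FAPs, and 1 of 2 was lower in SCs. Endothelial regulators showed the most calls in VECs, 12 of 20 tested lower and 0 higher (median -1.41), led by the flow-responsive transcription factors KLF4 (-6.34) and KLF2 (-5.46). KLF2 had 1.33 CPM in VECs and 0.722 CPM in FAPs of culture. It entered both fits mainly through muscle, so the sizes of its changes are not read. Lower calls in this list were not limited to the endothelium: 6 of 9 tested in FAPs, 5 of 6 in SMMCs, 2 of 3 in SCs and 3 of 4 in monocytes/macrophages were called lower (medians -2.82, -2.33, -3.12 and -3.21), with KLF4 at -3.37, -4.44, -3.28 and -4.14 and KLF2 in FAPs at -3.89.

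Genes of leukocyte traffic went both ways, to be read against the same shares. Of 6 tested in VECs 4 were called higher and 2 lower. The neutrophil chemokine CXCL8 went from 12.0 to 126 CPM and the adhesion molecule MCAM from 4.18 to 44.8 CPM. P-selectin SELP, stored in the same granules as VWF, went from 123 to 2.33 CPM, and CD99 (-1.18) fell. CXCL8, MCAM and SELP entered the fit mainly through the timepoint where they were high. No fold is given for them, and the count is not read as a result. Of 7 sialomucin and granule genes 2 were higher (ANGPT2 2.49, PLAT 1.35) and 3 lower, led by ENG (-4.21) and PODXL (-3.44). Of 10 NF-kappaB targets and feedback genes 2 were higher (SOD2 4.33, RELB 1.41) and 3 lower, led by BIRC3 (-1.70) and IRF1 (-1.68), and the 1 integrin gene tested was not called. The rises of SOD2 and CXCL8 were not limited to the endothelium. SOD2 was called higher in FAPs, SCs, SMMCs and monocytes/macrophages too (3.69, 4.85, 4.41 and 5.07). CXCL8 was called higher in FAPs (1.61 CPM in muscle and 89.4 CPM in culture) and monocytes/macrophages (2.13). CCL2 was higher in FAPs (1.42) and monocytes/macrophages (2.56) and lower in SMMCs (-2.07). In SCs it was called higher, with 13.1 CPM in muscle and 503 CPM in culture. CXCL8 in FAPs and CCL2 in SCs entered those fits mainly through culture, and no fold is given for them. In LECs, where 14.8% of all tested genes were called in each direction, 4 of 7 NF-kappaB genes were higher and 0 lower, and of 4 leukocyte genes 3 were higher and 1 lower. The leading genes had few or no UMIs in LECs of muscle and entered the fit through culture. These LEC counts are therefore not read as a result, and means are given and no fold: SOD2 had 8.25 and 1502 CPM in muscle and culture, CXCL8 3.71 and 582 CPM, RELB 0 and 65.3 CPM, and CCL2 0 and 108 CPM. The other LEC lists held 0 higher calls, with 2 of 7 adherens junction partners, 1 of 1 tight junction genes, 1 of 2 integrin genes, 2 of 4 granule genes and 6 of 12 regulators lower.

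Profiles of cell types at Timepoints 1 and 2 were made from the UMIs of all donors pooled per type, as log2(CPM + 1). Over these 18 pooled profiles, the genes outside these lists most like CDH5 were ECSCR (r = 0.912), ADGRL4 (r = 0.910) and FAM110D (r = 0.905), of 12247 genes compared. The closest to ICAM1 were YIPF4 (r = 0.875), TMEM59 (r = 0.841) and ZFP36 (r = 0.840), and to VCAM1 IKZF5 (r = 0.823), ASB3 (r = 0.817) and RAB30 (r = 0.802). The profiles of 1 timepoint share a library, and the values describe likeness only.

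After passage 0 no cell carried an endothelial label. Of the endothelial members, all but VWF had lower levels in FAPs at passage 2 than at passage 0, where their levels were already low: 2.32% of thinned FAPs of passage 0 had a CDH5 UMI, against 76.9% of VECs in that library. FAPs of the sorted FAP cultures had 6.92 CPM of CDH5 at passage 0 and 0.131 CPM at passage 2 (means, n = 3). CLDN5 went from 15.4 to 0.131 CPM and EMCN from 3.16 to 0.176 CPM, from 275, 643 and 131 UMIs for the 3 genes to 8, 9 and 11. PECAM1, F11R and ESAM were left with 1, 2 and 0 UMIs at passage 2, where 3 UMIs would be 0.044 CPM, and CD34 fell from 2.00 to 0.538 CPM. In this step 9.37% of all tested genes were called lower. These 7 members were called too, but most entered the fit through passage 0 alone, the library that held the 831 VECs, so no count or fold is drawn from them; the part of the VECs in these levels was not tested. In SCs of the SC cultures, where 4.09% of all tested genes were called lower, CDH5, PECAM1, ESAM and EMCN went from 36, 56, 30 and 30 UMIs to 5, 0, 0 and 6, and the same limit holds for them.

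Of the endothelial members, CLDN5, F11R and VWF had 611, 88 and 122 UMIs at passage 2 in SCs of the SC cultures, and none of these 3 was called from passage 0 to 2. VWF averaged 1.43 CPM at passage 2 and 2.04 CPM at passage 5 in the SC cultures (122 and 149 UMIs), with log2 differences of -0.57 ± 0.43 from passage 0 to 2 and 0.57 ± 0.42 from passage 2 to 5 (edgeR adjusted p = 0.38 and 0.43). SCs of donors 5, 6 and 10 held 11.7, 5.77 and 3.21 CPM of CLDN5 at passage 2 and 13.9, 8.53 and 12.2 CPM at passage 5. Neither step was called, with log2 differences of -0.48 ± 0.46 and 0.77 ± 0.48 (edgeR adjusted p = 0.50 and 0.35). Leaving out 1 donor gave -1.25 to -0.13 and 0.38 to 1.27, without a call. In the unsorted cultures CLDN5 was lower at passage 2. SCs of donors 1, 2 and 9 had 6.21, 4.35 and 9.36 CPM at passage 0 and 0.24, 1.08 and 1.21 CPM at passage 2, from 8 UMIs in 517 cells, without overlap. At passage 5 these donors held 4.63, 2.59 and 11.4 CPM (28, 2 and 24 UMIs), overlapping their values of passage 0 and the SC cultures of passage 5. The SCs found in FAP cultures averaged 0.722 CPM at passage 2 (163 cells), and these differences were not tested. The FAPs of the FAP cultures in the same libraries had means of 0.131 and 0.096 CPM. F11R stood at 1.51, 0.68 and 0.76 CPM at passage 2 and 3.31, 1.26 and 2.21 CPM at passage 5 in those SC donors, higher in 3 of 3. Its log2 difference of 1.196 ± 0.476 (edgeR adjusted p = 0.17) was called only with donor as a block (1.25, adjusted p = 0.045). SCs of passage 8 were too few for a donor comparison.

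VCAM1 was called higher at passage 2 in FAPs of the FAP cultures. In donors 4, 7 and 8 its level was 0.58, 3.75 and 2.85 CPM at passage 0, 12.9, 44.2 and 112 CPM at passage 2, 92.9, 120 and 176 CPM at passage 5 and 7.83, 36.6 and 114 CPM at passage 8. The donors kept 1 order (4, 7, 8) over the last 3 times, and the range at passage 2 lay above that at passage 0. From passage 0 to 2 the log2 difference was 4.59 ± 0.92 (24.0-fold higher, edgeR adjusted p = 0.0063), 3.73 without donor 8 and 5.17 without donor 7. The next steps were 1.30 ± 0.71 (edgeR adjusted p = 0.28) and -1.41 ± 0.82 (edgeR adjusted p = 0.34). Leaving out 1 donor gave 1.03 to 2.01 and -2.40 to -1.10 for them. With donor as a block, the step to passage 5 was 1.72 and was called (adjusted p = 0.040). After thinning to 2000 UMIs, 10.8%, 23.2% and 11.1% of these FAPs had a VCAM1 UMI at passages 2, 5 and 8. FAPs of the unsorted cultures had 15.8 ± 6.03, 33.8 ± 2.68 and 30.2 ± 29.3 CPM of VCAM1 (SD, n = 3) at the 3 passages; their donors overlapped those of the FAP cultures at passages 2 and 8 and were apart at passage 5, and the difference was not tested. In the SC cultures, FAPs of donors 5, 6 and 10 stood at 32.4, 14.7 and 3.67 CPM at passage 5 and at 14.05, 10.7 and 2.81 CPM at passage 8, where the FAPs of these donors had 4.99, 1.87 and 2.17 CPM at passage 0.

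**Figure D4:**
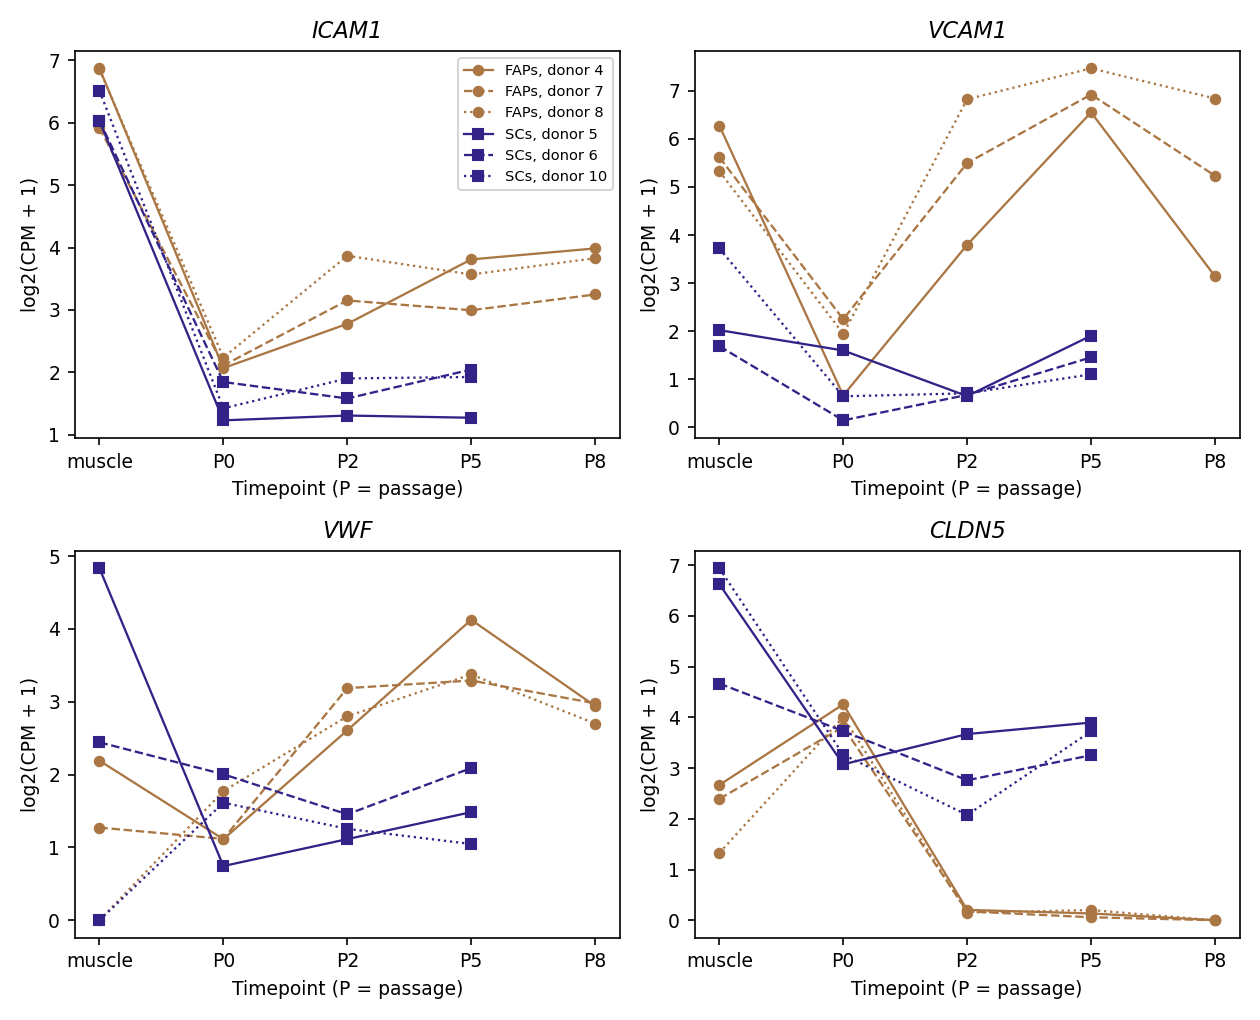
Level of ICAM1, VCAM1, VWF and CLDN5, as log2(CPM + 1), from muscle to passage 8 in FAPs of donors 4, 7 and 8 and from muscle to passage 5 in SCs of donors 5, 6 and 10, 1 line per donor. From passage 0 to passage 2, VCAM1, ICAM1 and VWF are higher in each of the 3 FAP donors, while CLDN5 drops near 0 in FAPs and stays measurable in SCs of these cultures.

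ICAM1 and VWF rose in the same FAPs by smaller steps. ICAM1 was 3.20, 3.32 and 3.72 CPM in FAPs of donors 4, 7 and 8 at passage 0 and between 5.85 and 13.6 CPM (mean 9.11 ± 4.01, SD, n = 3) at passage 2, at 1.52 ± 0.33 on the log2 scale (edgeR adjusted p = 0.0079). VWF rose from between 1.16 and 2.42 CPM to between 5.09 and 8.11 CPM, at 2.10 ± 0.36 (edgeR adjusted p = 0.0032). The values of both genes at passage 2 did not overlap those of passage 0. ICAM1, VWF and VCAM1 were the 3 members called higher in this step, beside 13.4% of all tested genes. Without donor 7 the calls of VCAM1, ICAM1, VWF and CD34 were lost (adjusted p 0.054 to 0.077). None of the 3 members tested was called from passage 2 to 5 or from passage 5 to 8, where 0.797% and 0.328% of all tested genes were called in either direction. At an unadjusted p below 0.05, 1 of the 3 (VWF) passed in each step, and DESeq2 called 0 of them. The fit with donor as a block called VCAM1 from passage 2 to 5, as given above, and raised the called genes from 94 to 646 in that step and from 37 to 465 in the next, where VWF was at -0.96 (adjusted p = 0.015), within the fold limit. VWF means at passages 5 and 8 were 11.5 ± 4.26 and 6.36 ± 0.75 CPM, and ICAM1 means 10.3 ± 3.06 and 12.2 ± 3.29 CPM (SD, n = 3).

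SCs held little of either receptor. In donors 5, 6 and 10 ICAM1 averaged 2.07 ± 0.64 CPM at passage 2 and 2.45 ± 0.91 CPM at passage 5 (SD, n = 3), with a log2 difference of 0.32 ± 0.35 (edgeR adjusted p = 0.60). VCAM1 was 0.57, 0.59 and 0.63 CPM at passage 2 and between 1.14 and 2.74 CPM at passage 5, the 1 member of 5 called higher in that step, beside 0.845% of all tested genes. Its log2 difference was 1.65 ± 0.37 (edgeR adjusted p = 0.047), and it was not called in the blocked fit (adjusted p = 0.051) or without each donor in turn.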

How the data were processed

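The authors counted 10x 3′ v3.1 reads with Cell Ranger 6.0.1 on ARS-UCD1.2 and deposited raw UMI counts per gene and barcode. They separated donors with demuxlet and deposited cell tables with donor, quality and type labels. The UMI totals in those tables equal the matrix totals for 89.6% to 93.1% of cells at Timepoints 2 to 4 and for 0 cells at Timepoints 1 and 5, where they are lower (median ratio 0.977 and 0.985, and 0.974 to 0.980 over the types at Timepoint 1); the matrix counts were used and the cause was not tested. A further 11 columns there were not used. Singlets that passed quality control were kept, with no further doublet caller. Raw counts were summed per donor and type (at least 10 cells) and compared with edgeR 4.0.16 in R 4.3.3 (quasi-likelihood F test, robust, TMM, filterByExpr). Calls needed a Benjamini-Hochberg adjusted p under 0.05 and a change of more than 1 on the log2 scale; the SE is that change divided by the square root of F. DESeq2 1.42.0, other filters, donor as a block, thinning and leaving out donors were alternatives. Donors were shared in part between the sides of a comparison. Between Timepoints 1 and 2 the shared donors were 9 for VECs, FAPs and SCs, 7 for SMMCs and monocytes/macrophages, and 3 for LECs. Deviations of the same donor correlated with medians of 0.011 to 0.077 between Timepoints 1 and 2. Between passages the medians were 0.231 to 0.577, with every pair above 0.1. The main fits did not use this pairing, and the fit with donor as a block did. The fits were tested on simulated data with 200 changed genes, drawn from those above a floor of mean CPM. The genes and lists were chosen with earlier results of these data known. All 10 genes are named in every comparison; of each list the 2 largest changes per direction among called genes are named, and 3 genes most like CDH5, ICAM1 and VCAM1. Groups were taken from the deposited tables and labels alone, and calves and adults were not compared here. Depth is 56121 UMIs or more per donor sum of LECs and 206284 or more for VECs, and shares and floors cover counting error only.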

Additional observations from a re-analysis of the deposited data

Results flagged for a closer look

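In 119 groups of 4 to 10 donors, 20 had 1 donor apart from the rest by Dixon's criterion. Its rate of about 1 in 20 by chance holds for normally spread values only. Groups with few UMIs or many values of 0 are not so spread, so the count is not read as an excess. In VECs this was VCAM1 in muscle (donor 5, 257 CPM). In LECs of muscle donor 4 stood apart for CD34 (89.1 CPM) and ICAM1 (53.5 CPM), and in LECs of passage 0 donor 2 for PECAM1 (388 CPM, the lowest) and donor 1 for VCAM1 (7.60 CPM). Among FAPs donor 3 stood apart in muscle for PECAM1 (29.6 CPM) and VWF (33.3 CPM), and donor 4 at passage 0 for CDH5 (10.5 CPM). In SMMCs of passage 0 donor 9 stood apart for CDH5 (93.4 CPM), PECAM1 (46.7 CPM) and CD34 (15.6 CPM), and donor 2 for CLDN5 (55.4 CPM). Donor 2 was also apart for CD34 in SCs of passage 0 (3.26 CPM).

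In monocytes/macrophages of muscle the donors apart were donor 3 for CDH5 (12.9 CPM) and donor 8 for PECAM1 (116 CPM). At passage 0 they were donor 10 for CDH5 (27.1 CPM) and ESAM (5.43 CPM), donor 5 for CD34 (9.47 CPM) and EMCN (18.9 CPM), and donor 1 for VCAM1 (19.9 CPM). These values rest on few UMIs.

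The change from muscle to passage 0 differed between VECs and FAPs for CD34 (4.45 on the log2 scale, edgeR interaction), EMCN (1.68) and ICAM1 (1.25). The last was at 0.64 and not called after thinning (edgeR adjusted p = 0.59). CD34, EMCN and ICAM1 had entered the FAP fit mainly through muscle, so these sizes are not read. VWF (-1.98) and VCAM1 (-2.30) passed the threshold between VECs and FAPs, and ICAM1 (-3.91) between VECs and LECs, but each had failed the filter on low counts in 1 of the types and was lost under at least 1 alternative. For ICAM1 these were the block by donor (adjusted p = 0.061), no filter (adjusted p = 0.079) and leaving out donor 7, 8 or 10.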

How the results depend on the processing

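Of 482 values of single members under the alternatives, 428 kept direction and side of the threshold, 28 were weaker, 6 stronger and 20 reversed. The counts of called genes were 2071 in VECs, 1003 to 3997 in FAPs, SCs, SMMCs and monocytes/macrophages, and 899 in LECs; they were 2631, 94 and 37 for the 3 FAP passage steps, 1136 and 367 for the SC steps, and 413 and 2208 for VECs against LECs and FAPs. Without the filter on low counts they were 5030 (VECs), 1863 (LECs), 4216 (SMMCs), 6925 (FAPs), 5286 (SCs), 3389 (monocytes/macrophages) and 65 (FAPs, passage 8 against 5). With pseudobulks thinned they were 1149, 333, 501, 1627, 502 and 459 in those types, 740 for SCs at passage 2 against 0, 173 for VECs against LECs and 980 for VECs against FAPs. At least 30 cells gave 2177 in SMMCs and could not be fitted for LECs, monocytes/macrophages or VECs against LECs. Donor as a replicate block gave 646 and 465 for FAPs at passage 5 against 2 and 8 against 5, and 230 for VECs against LECs, where DESeq2 gave 525 and 306 for the 2 FAP steps; the block changed no other count by more than 1.5 times. Leaving out 1 donor gave 1486 to 3095 (FAPs, passage 2 against 0), 432 to 880 (SCs, same step), 0 to 2 (FAPs, passage 5 against 2, and 8 against 5) and 0 to 317 (SCs, passage 5 against 2) with edgeR. EMCN in VECs of passage 0 averaged 351 CPM in thinned cells and 404 CPM otherwise. Reversed log2 differences were all within 1 of 0. Without the filter they were CDH5 0.0096 and PECAM1 0.11 in LECs, CDH5 0.015 in FAPs, and PECAM1 -0.079 and F11R -0.060 in VECs against FAPs. DESeq2 gave F11R -0.081 in SCs at passage 2 and ESAM 0.0055 in VECs against FAPs. Leaving out a donor gave F11R -0.38 to 1.03 and ICAM1 -0.28 to 0.41 in SCs at passage 2, ICAM1 -0.16 to 0.66 in FAPs at passage 5, and F11R -0.32 to 0.072 and ESAM -1.22 to 0.15 in VECs against LECs. Thinning gave ICAM1 -0.023 in FAPs at passage 8, ESAM 0.25 in VECs against LECs, and PECAM1 -0.45 and F11R -0.74 in VECs against FAPs. At least 30 cells gave ESAM 0.070, and the block PECAM1 -0.13 and ESAM 0.087, in VECs against FAPs. The cause was not tested, apart from the smaller number of UMIs or genes that thinning and the filter set. Singlets that failed quality control carry no type label and were not run as an alternative. Depth limits VCAM1 and the LEC values.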
